A study of Junonia coenia with 20 samples.

Results

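In hind wings of the buckeye butterfly Junonia coenia, the colour morphs Rosa and Linea were compared while ommochrome pigment was being laid down. The 40 of 16251 transcripts with the widest gap between Rosa and Linea libraries, Rosa on the high side, are described here. They were chosen by their measured levels in the 8 ommochrome-stage libraries: for each transcript the highest Linea level was subtracted from the lowest Rosa level, and the 40 largest gaps were taken. The labels describe Linea and Rosa wings as imaginal discs of 5th instar larvae, pre-pigment pupal wings, wings in early (yellow) ommochrome development and wings in late (orange/red) ommochrome development. Each of these 8 groups is represented by 2 libraries, so 16 of the 20 labelled samples are used. All animals came from a population of Durham, North Carolina, and ate an artificial diet. They were kept either at 21°C with 8 h of light or at 27°C with 16 h of light, regimes known to give different morphs. No genotype, transgene or treatment beyond rearing is named, and no label ties a morph to a regime, so morph and rearing cannot be told apart.

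Ommochromes are yellow, red and brown pigments that insects make from tryptophan, and in nymphalid wings they fill the scales late in pupal life. The buckeye is a textbook case of seasonal polyphenism: Linea is known as the pale tan ventral form and Rosa as the dark red one. Imaginal discs are the larval pouches of epithelium that become the wings, and the pre-pigment pupal wing has not yet coloured its scales. The table gives identifiers of a de novo assembly and no gene names or sequences. What the 40 transcripts encode is therefore not described, and the labelled tissue could not be checked against marker genes.

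Levels are the authors' RPKM (read density normalised to transcript length and library total) divided by a factor for each library, called scaled RPKM. The factors ran from 0.578 in Linea pre-pigment replicate 2 to 1.81 in Rosa larva replicate 2. RPKM keeps no read count, so the depth behind a value is unknown. Between 11339 and 14314 transcripts per library reached 1 RPKM. Spearman correlations within replicate pairs ran from 0.658 in Rosa pre-pigment wings to 0.874 in Linea larvae. In whole wings, fewer cells of a type and less RNA per cell cannot be told apart.

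All 4 Rosa ommochrome libraries lay above all 4 Linea ones for each of the 40, as the rule requires. Among all transcripts, 268 (1.65%) had this order, so the 40 are the upper end of that list, and nothing is read from their separation. On the scale log2(scaled RPKM + 1), used for every difference given here, the gap ran from 0.45 to 1.25 with a median of 0.74, and 7 transcripts had a gap of at least 1. The difference of the morph means ran from 0.78 to 3.29 with a median of 1.62, beside a median of 0.00 over all transcripts.

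**Figure D1:**
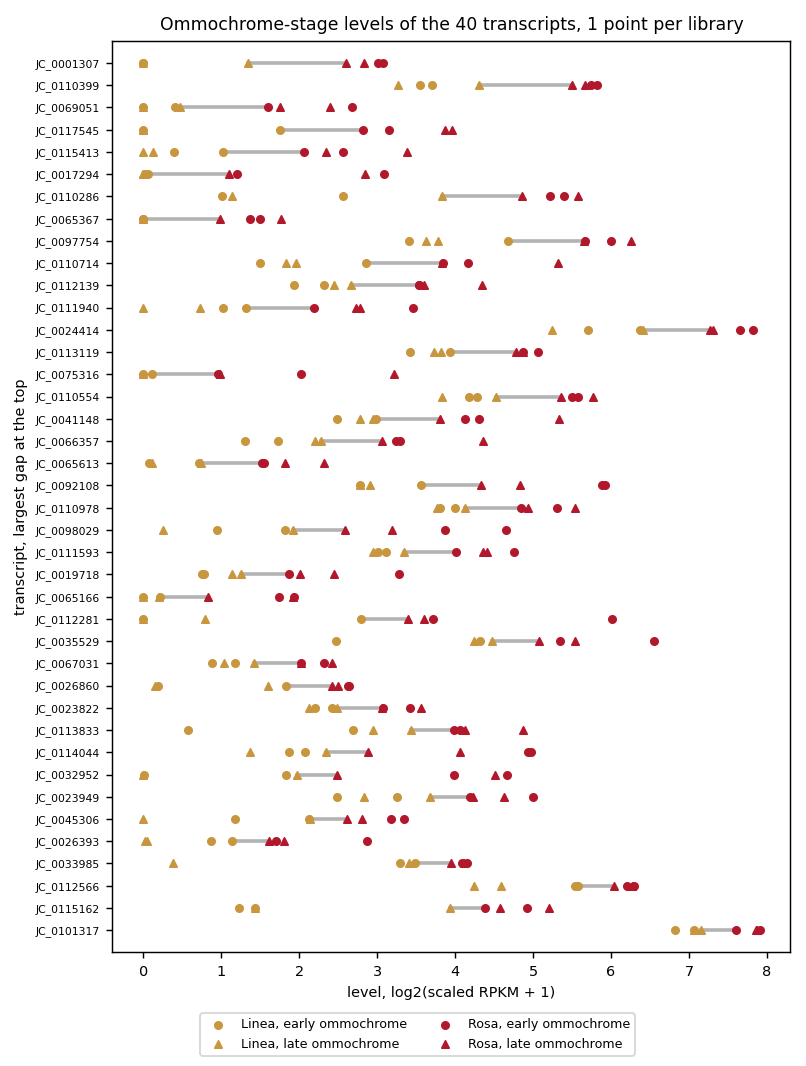
Level of each of the 40 transcripts (rows, largest gap at the top) in the 8 ommochrome-stage libraries, as log2(scaled RPKM + 1); colour gives the morph, shape the stage, and the grey bar the gap. The gap shrinks from 1.25 at the top to 0.45 at the bottom, and abundant and faint transcripts occur all along the list.

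Most of the 40 were of moderate abundance. The Rosa ommochrome mean ran from 1.70 to 224 scaled RPKM with a median of 16.2, against a median of 7.00 over all transcripts. These libraries chose the members for high Rosa levels, so nothing is read from that comparison. The Linea mean had a median of 3.13. The Rosa mean was under 5 scaled RPKM in 10 members, from 5 to under 50 in 24 and at least 50 in 6. In 6 members all 4 Linea ommochrome libraries were below 1 scaled RPKM, and 8 members were listed at 0 in at least 1 of them. No member was listed at 0 in all 4.

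The transcript with the largest gap, JC_0001307, was nearly absent from Linea ommochrome wings. It was listed at 3.84e-05 and 0 scaled RPKM in Linea early wings and at 1.55 and 0 in late ones, against 7.46 and 7.06 in Rosa early and 5.05 and 6.10 in Rosa late wings. Before pigment the order was the other way round: Linea larvae had 26.1 and 14.7 and Linea pre-pigment wings 15.1 and 10.0 scaled RPKM, while Rosa larvae had 5.96 and 0.764 and Rosa pre-pigment wings 5.81 and 2.89. Rosa thus had similar low levels through the pupal stages, and Linea, the higher morph before pigment, was at or near 0 in 3 of 4 libraries after it.

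JC_0110399 was the most abundant of the 8 largest gaps. Rosa ommochrome wings had 55.6 and 52.5 scaled RPKM early and 49.7 and 44.1 late, and Linea ones had 10.7 and 12.0 early and 8.60 and 18.7 late. In pre-pigment wings Linea was again the higher morph, at 42.1 and 44.6 against 25.3 and 22.1. All 4 larval libraries were below 1 scaled RPKM, from 0.0437 to 0.687.

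JC_0069051 and JC_0017294 were low in Linea throughout and present in Rosa from the pre-pigment stage on. JC_0069051 was at most 0.861 scaled RPKM in any Linea library, and in Rosa it was at 3.59 and 2.59 in pre-pigment wings, 2.04 and 5.37 early and 4.25 and 2.38 late. JC_0017294 was at most 0.950 in any Linea library. In Rosa it was at 7.75 and 2.97 in pre-pigment wings, 7.51 and 1.30 early and 1.14 and 6.16 late. Rosa larvae were near the Linea level for both, at 0.630 and 1.07 for JC_0069051 and at 0.438 and 0 for JC_0017294.

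JC_0117545 was present in larvae of both morphs and parted later. Larvae had 30.2 and 12.1 scaled RPKM in Linea and 9.40 and 28.9 in Rosa. Pre-pigment wings had 11.8 and 5.06 in Linea but 0.353 and 0.0844 in Rosa. At the ommochrome stages the order turned, with Linea at 2.36 and 1.62e-06 early and 2.48e-05 and 0 late, and Rosa at 7.89 and 6.04 early and 13.6 and 14.5 late.

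JC_0115413 was at 3.19 and 4.91 scaled RPKM in Rosa early and 4.09 and 9.45 in Rosa late wings, against 0.314 and 1.03 in Linea early and 6.85e-06 and 0.0864 in Linea late wings. Its pre-pigment replicates disagreed in Rosa, at 4.50 and 6.23e-06, while Linea had 0.402 and 0.000290. Larvae had 5.16 and 2.67 in Linea and 6.45 and 0.447 in Rosa, so the morphs overlapped there and in pre-pigment wings.

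Of the 8, JC_0110286 had the most uneven Linea ommochrome levels, where late replicate 1 stood at 13.2 and late replicate 2 at 1.19 scaled RPKM, after 1.02 and 4.90 in early wings. Rosa had 36.1 and 41.1 early and 28.0 and 46.7 late. Pre-pigment levels were 16.1 and 10.6 in Linea and 12.6 and 3.66 in Rosa, and larval levels 4.35 and 0.554 against 1.14 and 7.84, so the morphs overlapped at both stages.

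JC_0065367 was the faintest of the 8. Rosa had 1.81 and 1.58 scaled RPKM early and 2.41 and 0.983 late, and Linea was listed at 4.66e-06 in early replicate 1 and at 0 in the other ommochrome libraries. The larval libraries of the morphs did not overlap, at 0.523 and 0.135 in Linea and 2.48 and 6.41 in Rosa. That larval difference did not pass the test described below (limma adjusted p = 0.717). Pre-pigment wings were at no more than 0.556 in either morph.

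**Figure D2:**
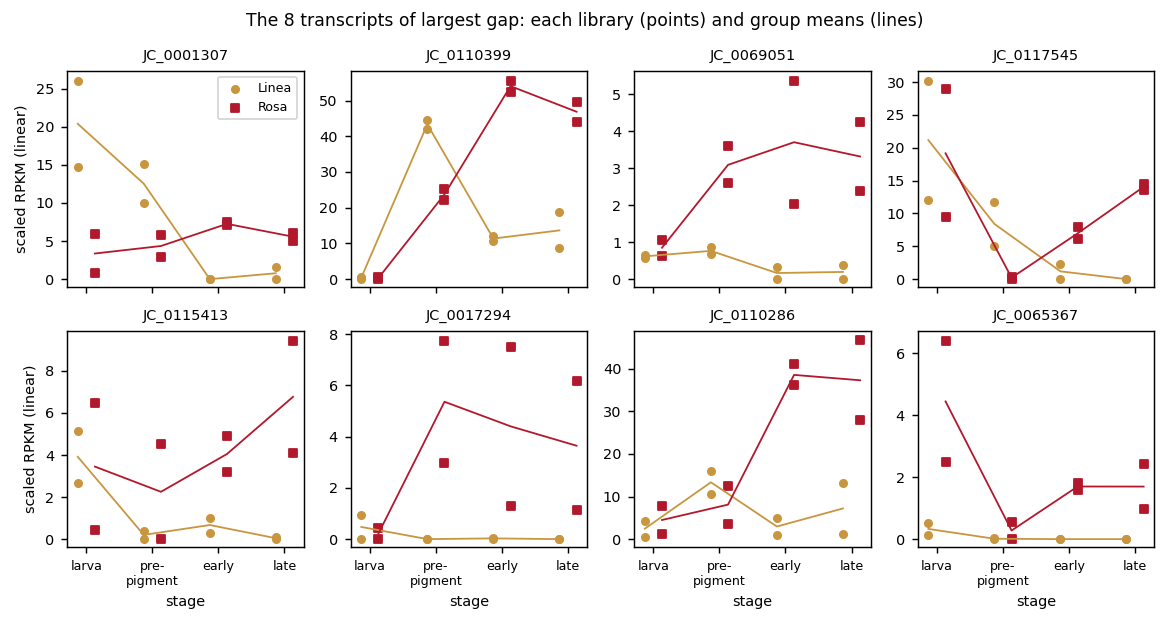
Scaled RPKM (linear axis, its own range in each panel) of the 8 transcripts with the largest gaps at the 4 stages; points are single libraries and lines join the means of the 2 libraries per morph and stage. Rosa lies above Linea at both ommochrome stages in every panel, while JC_0001307, JC_0110399 and JC_0117545 have Linea above Rosa in pre-pigment wings.

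At the lower end of the list the order rested on small margins. The last 2 members were JC_0115162 and JC_0101317, with gaps of 0.452 and 0.447, and the next transcripts, left out by the rule, were JC_0112829 and JC_0111597, with gaps of 0.416 and 0.412. JC_0101317 was the most abundant member, at 239, 194, 233 and 231 scaled RPKM in Rosa ommochrome libraries and at 133, 112, 142 and 132 in Linea ones. JC_0112829 had 40.05, 33.0, 48.3 and 39.6 in Rosa and 16.3, 24.5, 9.01 and 23.0 in Linea. JC_0111597 had 366, 330, 442 and 384 in Rosa, while its Linea libraries were spread from 7.30 to 248.

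Membership depended on single libraries. Without Linea late replicate 2, 14 of the 40 were chosen again, and without Linea early replicate 1 or 2 the counts were 20 and 19. The count was 26 without Linea late replicate 1, 24 and 21 without Rosa early replicates 1 and 3, and 28 and 23 without Rosa late replicates 1 and 2. Ranking by the difference of morph means in place of the gap kept 6 of the 40. With RPKM as deposited 26 were kept, and with levels matched by quantile normalization 33. Under these scalings all 40 still had Rosa above Linea in every ommochrome library. The gap was bounded by several libraries: Rosa late replicates 1 and 2 were the lowest Rosa library for 13 and 12 members, and Linea late replicates 1 and 2 the highest Linea library for 11 and 12.

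The larval and pre-pigment libraries took no part in the choice, and there the 40 showed no common direction between the morphs. In larvae the Rosa mean was above the Linea mean for 18 members and below it for 22, with a median difference of -0.06 beside -0.01 over all transcripts. In pre-pigment wings the counts were also 18 above and 22 below, with a median of -0.13 beside -0.07. Of the 40, 8 had a higher Rosa mean at both stages, 12 a lower one at both, and 20 had opposite signs. At early ommochrome the medians were 1.71 for the members and -0.07 for all transcripts, and at late ommochrome 1.66 and 0.04; those libraries made the choice.

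**Figure D3:**
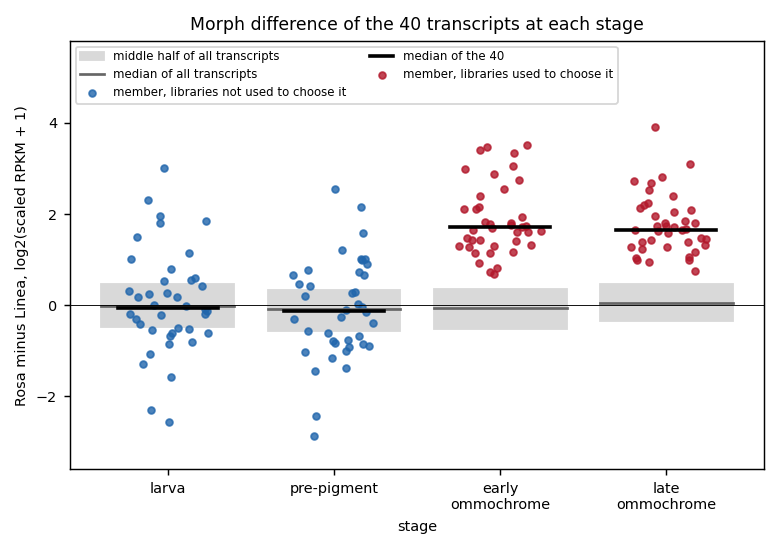
Rosa minus Linea difference of each of the 40 transcripts (points) at the 4 stages, in log2(scaled RPKM + 1), with the median of the 40 (black), the median of all transcripts (grey line) and the interquartile range of all transcripts (grey box). The larval and pre-pigment points lie on both sides of 0, with medians of -0.06 and -0.13, and the ommochrome points are above 0 because they were selected so.

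No member passed the test of a morph difference before ommochrome deposition. The test was limma on the 8 larval and pre-pigment libraries, with Benjamini-Hochberg adjustment over the 15453 transcripts that reached 1 RPKM in at least 2 of them; 39 members were among these, and JC_0026393 was not. In larvae 0 of 39 were called at an adjusted p under 0.05, and 0% of all transcripts were. At an unadjusted p under 0.05 there were 3 members, 2 higher in Rosa and 1 lower, and 839 (5.43%) of all transcripts. In pre-pigment wings 0 of 39 and 0% of all were called. An unadjusted p under 0.05 was reached there by 5 members (3 higher and 2 lower in Rosa) and 708 (4.58%) of all. With both stages averaged the calls were again 0 of 39 and 0% of all. Here 5 members and 836 (5.41%) of all had an unadjusted p under 0.05. The median standard error of a member was 0.78 log2 units at a single stage. With 2 libraries per group, a difference as large as 3.01 log2 units (JC_0115162 in larvae) did not pass, so these counts of 0 do not show that the morphs had like levels.

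Where the 2 libraries of each morph did not overlap, both orders occurred. In larvae 5 members had both Rosa libraries above both Linea ones (17% of all transcripts did) and 8 had the reverse order (20.5% of all). In pre-pigment wings 5 had Rosa above Linea (12% of all) and 8 Linea above Rosa (14.5% of all). JC_0115162 alone among the 40 had Rosa above Linea without overlap at both stages, and JC_0001307 and JC_0113119 alone had Linea above Rosa at both.

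JC_0115162 had the smallest larval p among the members. Rosa larvae had 52.3 and 57.5 scaled RPKM and Linea larvae 3.49 and 9.68, a difference of 3.01 ± 0.73 (SE) with an adjusted p of 0.639 by limma. In pre-pigment wings Rosa had 13.4 and 13.2 and Linea 12.3 and 2.76. Its Linea libraries were unlike each other at the ommochrome stages too, at 1.33 and 1.69 early but 14.3 and 1.70 late, while Rosa had 19.9, 29.4, 35.8 and 22.7. Averaged over larvae and pre-pigment wings the difference was 2.01 ± 0.51 (SE), with a limma adjusted p of 0.632.

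JC_0017294, described above, had the smallest pre-pigment p among the members, with a difference of 2.56 ± 0.56 (SE) and a limma adjusted p of 0.526. It also had the smallest p for a change of the morph difference from larva to pre-pigment wing, at 2.78 ± 0.80 (SE) and a limma adjusted p of 0.998. For that interaction 0 of 39 members and 0% of all transcripts were called. An unadjusted limma p under 0.05 was reached by 3 members and 666 (4.31%) of all.

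Members with the opposite order before pigment are shown by JC_0001307, at a larval difference of -2.56 ± 0.78 (SE, limma adjusted p = 0.821), and by JC_0117545, at a pre-pigment difference of -2.86 ± 0.76 (SE, limma adjusted p = 0.717). JC_0113119, picked out after its values were seen, had similar levels at all stages in Linea and not in Rosa. Linea libraries ran from 7.40 to 14.3 scaled RPKM over all 4 stages. Rosa had 3.93 and 7.03 in larvae and 6.79 and 7.23 in pre-pigment wings, then 32.4 and 28.2 early and 26.5 and 28.2 late. Every Rosa library before pigment lay below its stage's Linea libraries, and every later one above them, the latter as the rule requires. Neither difference of JC_0113119 before pigment passed the limma test. It was -0.80 ± 0.55 (SE, limma adjusted p = 0.996) in larvae and -0.68 ± 0.55 (SE) in pre-pigment wings.

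From the larval disc to the pre-pigment wing, with the morphs averaged, 2 of 39 members rose and 5 fell (limma, adjusted p under 0.05), beside 11.5% of all transcripts that rose and 9.62% that fell. JC_0110399 rose most, from the larval values of at most 0.687 given above to between 22.1 and 44.6 scaled RPKM, a change of 4.62 ± 0.39 (SE, limma adjusted p = 0.000763). JC_0023949 rose by 3.43 ± 0.61 (SE, limma adjusted p = 0.00894). Its larvae had 25.1 and 23.6 in Linea and 28.6 and 45.9 in Rosa, and its pre-pigment wings 227 and 741 in Linea and 122 and 584 in Rosa. At the ommochrome stages it was at 8.53, 4.61, 11.8 and 6.13 in Linea, below both Linea larvae, and at 30.9, 17.2, 23.7 and 17.8 in Rosa. The high pre-pigment level of JC_0023949 was thus common to both morphs, whose libraries overlapped there, while Rosa lay above Linea at the lower levels before and after it.

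The fallers with the largest changes were JC_0110554 and JC_0045306. JC_0110554 went from 115 and 169 scaled RPKM in Linea larvae and 485 and 84.9 in Rosa larvae to 7.75 and 23.9 in Linea and 22.5 and 16.6 in Rosa pre-pigment wings, a change of -3.29 ± 0.62 (SE, limma adjusted p = 0.0116). Linea stayed at that level in ommochrome wings, at 17.0, 18.5, 13.2 and 22.0, and Rosa stood at 46.6, 44.3, 40.1 and 53.3. JC_0045306 went from 4.69 and 7.81 in Linea and 5.21 and 9.51 in Rosa larvae to 0.177 and 0.690 in Linea and 0.281 and 0.104 in Rosa pre-pigment wings, a change of -2.55 ± 0.39 (SE, limma adjusted p = 0.00548). In ommochrome wings it was at 3.35, 1.26, 8.56e-07 and 3.39 in Linea and at 9.12, 8.03, 5.14 and 5.98 in Rosa, so the Rosa values lay close to the larval ones.

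These calls depend on the settings. With the replicate number as a block the 2 risers kept their calls, JC_0110399 at 4.30 (limma adjusted p = 0.0187) and JC_0023949 at 4.57 (0.0179). All 5 fallers lost theirs (JC_0110554 at -3.51 with a limma adjusted p of 0.0695, JC_0045306 at -2.12 with 0.0682). Larvae had replicates 2 and 3 and pre-pigment wings 1 and 2, so this fit took the change from the replicate 2 libraries alone. It left 2 residual degrees of freedom, so the lost calls cannot be told apart from the use of fewer libraries. The count of 7 was 4 without Linea larva replicate 2 or 3 or Rosa larva replicate 3, and JC_0110554 lost its call without Linea larva replicate 3 (-3.15, limma adjusted p = 0.0509). With RPKM as deposited the members' split was 2 risers and 16 fallers, after the median of all transcripts moved from -0.14 to -1.04.

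Set against the pre-pigment wings of both morphs, the ommochrome difference lay on either side. Here and below, fold limits are set on means of log2(scaled RPKM + 1), where 2-fold is 1 unit. A faint transcript needs more than a 2-fold change in scaled RPKM to reach it. In 18 members (11.3% of all transcripts) the Rosa ommochrome mean was at least 2-fold above the pre-pigment mean while the Linea mean was not 2-fold below it. In 12 members (6.83% of all) the Linea mean was at least 2-fold below while Rosa was not 2-fold above. Both held in 3 members (0.08% of all) and neither in 7 (81.8% of all). The choice of members bears on these shares, and nothing is read from the comparison with all transcripts. With 0.1 in place of the 1 added to scaled RPKM, the 4 classes held 16, 10, 10 and 4 members.

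**Figure D4:**
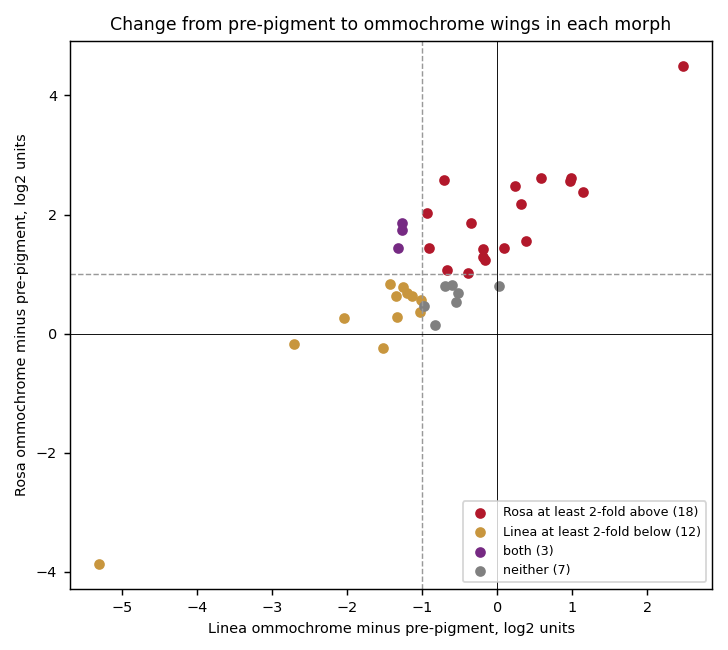
Change from the pre-pigment mean of both morphs to the ommochrome mean of Linea (horizontal) and of Rosa (vertical) for the 40 transcripts, in log2(scaled RPKM + 1). Dashed lines mark Rosa 2-fold above and Linea 2-fold below, each 1 unit on this scale. Colours give the 4 classes of 18, 12, 3 and 7 members. Points spread over both sides, with JC_0097754 at the upper right and JC_0023949 at the lower left.

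The Rosa side is shown by JC_0115413 and JC_0065367 and the Linea side by JC_0001307 and JC_0110399, whose values are given above. The pre-pigment mean averages the morphs, so the class can differ from a morph's own course. Among the 12 members with Linea alone below, JC_0017294 had a Linea ommochrome mean that differed from Linea's own pre-pigment mean by 0.02. The Linea difference from that mean was also short of 2-fold in JC_0069051 (-0.60), JC_0110714 (-0.35), JC_0075316 (-0.75), JC_0065613 (-0.53) and JC_0026860 (-0.97). The rest of that class were at least 2-fold below it. JC_0115162, counted with both, fell short of 2-fold against each morph's own pre-pigment mean, at 0.93 in Rosa and -0.82 in Linea. JC_0117545 and JC_0110286 had the largest gaps among the 3 members with both. JC_0019718 and JC_0065166 had the largest gaps among the 7 with neither. JC_0019718 had 3.30 and 0.726 scaled RPKM in Linea and 1.19 and 3.95 in Rosa pre-pigment wings, then 0.689, 0.715, 1.38 and 1.19 in Linea and 2.65, 8.68, 4.43 and 3.04 in Rosa ommochrome wings. JC_0065166 had 1.67 and 0.188 in Linea and 1.29 and 0.294 in Rosa pre-pigment wings, then at most 0.163 in Linea and 2.36, 2.82, 0.780 and 2.77 in Rosa. In both, the pre-pigment level lay between the later levels of the morphs.

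In 3 members, picked out after their values were seen, both morphs lay on the same side of the pre-pigment mean by at least 2-fold. JC_0097754 and JC_0110978 lay above it in both morphs. JC_0097754 had 5.04 and 1.31 scaled RPKM in Linea and 1.69 and 0.254 in Rosa pre-pigment wings, then 24.5, 9.66, 12.7 and 11.3 in Linea and 63.1, 49.7, 49.2 and 75.2 in Rosa. It was at most 1.23 in Linea larvae and listed at 0 in both Rosa larvae. For JC_0110978 the Linea side rests on Rosa pre-pigment replicate 1, at 0.0126 scaled RPKM, which lowers the pre-pigment mean. Its other pre-pigment libraries had 7.74 and 13.9 in Linea and 16.3 in Rosa, its Linea ommochrome libraries 13.0, 15.0, 16.5 and 12.7, and its Rosa ones 27.8, 38.7, 45.5 and 29.5. Against Linea's own pre-pigment mean the Linea difference of JC_0110978 was 0.42. JC_0023949 was the single member that lay below the pre-pigment mean in both morphs.

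Between early and late ommochrome wings the members had no common direction. The difference between late and early wings had a median of -0.08 in Rosa (0.00 over all transcripts) and of -0.003 in Linea (-0.11 over all). The Rosa late mean was at least 2-fold below the early one in 4 members, JC_0092108, JC_0098029, JC_0112281 and JC_0114044, and at least 2-fold above in 0, beside 7.99% and 8.05% of all transcripts; these too were picked out after their values were seen. The morph difference was larger at early ommochrome in 24 members and at late ommochrome in 16. The rule favours members whose libraries agree within a morph, so these values are a description.

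The 40 did not share a single course before pigment. Over the 8 larval and pre-pigment libraries, 5 of 780 pairs of members (0.641%) had a Pearson correlation of at least 0.9, and 1.00% of all pairs of tested transcripts did; all pairs share the same libraries and their stages. The closest pair, named after its values were seen, was JC_0041148 and JC_0066357, with a correlation of 0.95 over these 8 libraries and 0.92 over all 16. The second value takes in the ommochrome libraries, which chose these transcripts. Both were high in Rosa larva replicate 2, at 19.0 and 25.1 scaled RPKM, and near 0 in Rosa larva replicate 3, at 0.000227 and 0.103. JC_0092108, at 0.92 with JC_0066357, had 70.9 and 0.0747 in the same libraries. Rosa pre-pigment replicate 2 stood above replicate 1 as well, at 18.5 against 0.954 for JC_0041148 and 10.9 against 1.33 for JC_0066357. For JC_0092108 these levels were 10.8 and 0.765. Rosa larva replicate 2 held the highest value of all 16 libraries for 6 of the 40 (9.67% of all transcripts), as did Linea larva replicate 3 (11.1% of all) and Rosa early replicate 3 (2.95% of all). Rosa early replicate 3 is among the libraries that chose the members, so nothing is read from its share. The part of Rosa larva replicate 2 in the larval values of JC_0041148, JC_0066357 and JC_0092108 was not tested. Their ommochrome values come from other libraries.

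**Figure D5:**
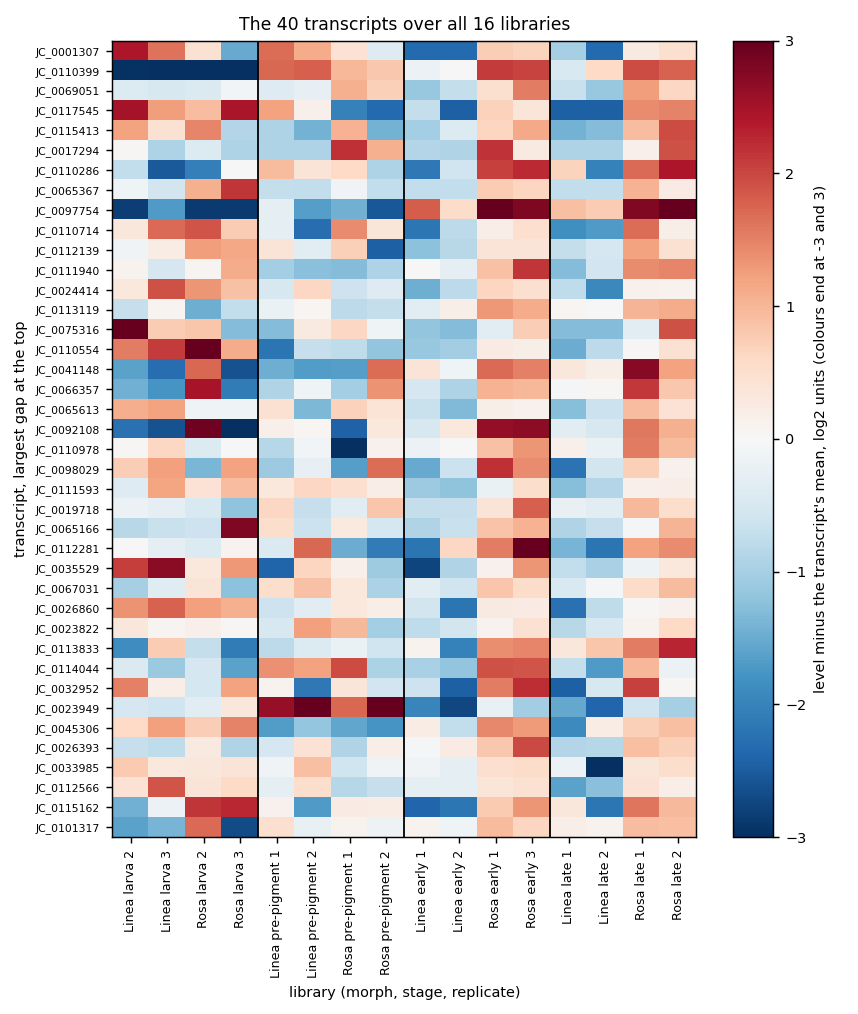
Level of each of the 40 transcripts (rows) in all 16 libraries (columns, by stage, morph and replicate), as the difference from the transcript's own mean in log2(scaled RPKM + 1). The Rosa columns are redder than the Linea columns at the early and late stages, by selection, while the larval and pre-pigment columns show no shared morph order, with 18 members higher and 22 lower in Rosa at each of these stages.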

How the data were processed

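The authors deposited RPKM for 16251 transcripts in 16 libraries, and the submitters' processing notes name Bowtie 0.12.7 as the aligner. How the assembly was built, how RPKM was estimated and whether rows were filtered is not stated there. Per the labels' protocols, amplified cDNA was sheared to 300 bp and read as 75 bp or 100 bp pairs; the instrument of each library is not labelled and its effect was not tested. No read count can be had from RPKM: 2595 values lie between 0 and 0.001. Labels do not say whether replicates are separate animals, so the p-values rest on a spread among libraries that may be technical only. Samples without a column (4) were not analysed here.

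Factors were medians of ratios to the geometric mean of rows that reached 1 RPKM in each of the 16 libraries (7126 rows). R 4.3.3 ran the tests with limma 3.58.1; the values were log2(scaled RPKM + 1), with 4 group means, 4 residual degrees of freedom and an intensity trend, adjusted over 15453 transcripts and checked on simulated data. Ommochrome libraries stayed out because they chose the members. The fit makes 5 comparisons.

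Transcripts described are the 8 largest gaps, the 2 members inside and 2 transcripts outside the limit of the list, the 2 largest gaps of each course class and, per test, up to 2 called members each way or the one with the smallest p. Members, rules and tests were chosen with earlier results of these data known. Results were recomputed with each library left out, with a replicate block, with all 16 libraries in the fit, with array weights, under other filters, with a pseudocount of 0.1, after quantile normalization and on unscaled RPKM.

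Same-numbered Linea and Rosa libraries of a stage deviated together, with correlations of 0.17 in larvae, 0.38 in pre-pigment wings and 0.17 at late ommochrome. The fit with the replicate number as a block is therefore given beside the results whose calls it changes. Those results compare stages, and the correlations do not show that equal numbers of different stages belong together. The printed standard errors and adjusted p-values otherwise come from the fit without the block. The pairing within a stage comes from the data, since no label says what a number marks.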

Additional observations from a re-analysis of the deposited data

How the results depend on the processing

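For the 4 comparisons that involve the morphs before pigment, the count of members called was 0 under every setting and without any single library. Over all transcripts these counts were 0 too, except 20 for larvae (5 higher and 15 lower in Rosa) with all 16 libraries in the fit. From larva to pre-pigment wing the count of 7 members was 18 with RPKM as deposited, 2 with the replicate block and 12 with all 16 libraries, and ran from 4 to 9 without single libraries. The 3260 calls over all transcripts were 7308 (1025 up, 6283 down) with RPKM as deposited and 1157 (866 up, 291 down) with the replicate block, and ran from 1289 to 3998 without single libraries. The block fit took that change from the replicate 2 libraries alone, and it changed no call in the other comparisons. Of the 40 members, 26 were chosen again with RPKM as deposited, 26 with a mean of at least 5 RPKM and 6 by the difference of morph means, and from 14 to 28 without single libraries. The median morph difference of all transcripts at the ommochrome stages moved by 0.32 towards Rosa with RPKM as deposited. In the course from pre-pigment wings, RPKM as deposited gave 5 members with Linea alone lower, 5 with both and 4 with neither; a pseudocount of 0.1 gave 10 with both and 4 with neither; a 3-fold limit gave 3 with Linea alone lower, 0 with both and 25 with neither. Without single libraries the 4 classes ran from 16 to 18, 9 to 14, 2 to 6 and 5 to 9. The causes of these shifts were not tested. Depth is unknown, so no limit of detection can be given for the 10 members under 5 scaled RPKM, and with 2 libraries per group a missed threshold does not show equal levels.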
